A study of Mus musculus with 12 samples.

Results

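Potassium channel genes were examined in microglia and astrocytes sorted from the brains of LPS-treated mice. They were taken by symbol, as every gene of the tables named Kcn followed by a letter code and a number, which covers pore-forming subunits and the auxiliary subunits that share this naming. Of 40853 symbols, 92 matched. Kcnj10 and Kcnj16, inward rectifiers treated as astrocyte potassium buffering genes, were set aside, which left 90 members. Of these, 31 had a count in all 12 libraries, and 2, Kcnk15 and Kcnk16, had 0 counts in all of them, which allows up to 3 counts per library.

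The libraries came from 6 mice aged 8 to 9 weeks, 3 wild type (WT) and 3 labelled knockout (KO) for Kpna4, the gene of importin α4, an adaptor of nuclear protein import. All 6 mice had been given an intraperitoneal dose of 1 mg/kg LPS, the bacterial endotoxin lipopolysaccharide, 20 h earlier, so the WT groups are LPS-treated too, and untreated mice were not analysed here. Each mouse gave 1 microglia and 1 astrocyte library from enzymatically dissociated whole brain, so that each pairing of cell type and genotype, 4 groups in all, had 3 libraries. Which part of Kpna4 was deleted is not stated by the labels. Kpna4 was at 84.4 ± 14.8 CPM in microglia WT and 69.0 ± 9.41 CPM in microglia KO, and at 49.6 ± 8.81 CPM in astrocytes WT and 64.4 ± 18.6 CPM in astrocytes KO (SD, n = 3 each). The libraries overlapped in both cell types, and the gene passed the test in neither (edgeR adjusted p 0.778 and 0.999). The Kpna4 counts therefore do not show the knockout, the genotype labels could not be checked from them, and KO below means the libraries labelled KO.

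Potassium channels set the resting potential of a cell and carry potassium out of or into it. Voltage-gated (Kv), calcium- and sodium-activated, inwardly rectifying (Kir) and two-pore domain (K2P) channels differ in what opens them, and auxiliary subunits such as the KChIP proteins change their trafficking and gating. In microglia, THIK and inward rectifier channels are known for setting the membrane potential and for links between potassium efflux and inflammasome activation, while astrocytes are known for high potassium permeability and for taking up potassium released by neurons.

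Promoter sequences are shown for 5 members that have a RefSeq promoter window. Leading genes such as Kcnk6, Kcnt1 and Kcnn2 had none. Of the members with a window, Kcnj2 and Kcnk13 had the smallest p among those higher in microglia, and Kcna2 and Kcnd2 among those higher in astrocytes. Kcnma1 had the smallest p between genotypes in microglia, where it did not pass the edgeR test. Each sequence is the 250 bases before the transcription start in RefSeq on GRCm38.p6, written 5′ to 3′ on the gene's strand, with CG dinucleotides in capitals. The windows are chr11:111065914-111066163 on the plus strand for Kcnj2, chr12:99964249-99964498 on the plus strand for Kcnk13, chr3:107101317-107101566 on the plus strand for Kcna2, chr6:21215096-21215345 on the plus strand for Kcnd2, and chr14:24004206-24004455 on the minus strand for Kcnma1.
Kcnj2: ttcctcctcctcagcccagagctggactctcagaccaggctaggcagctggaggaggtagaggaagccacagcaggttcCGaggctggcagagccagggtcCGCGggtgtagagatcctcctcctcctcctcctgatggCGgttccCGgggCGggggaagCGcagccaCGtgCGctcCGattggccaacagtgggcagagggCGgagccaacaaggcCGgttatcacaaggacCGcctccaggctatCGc
Kcnk13: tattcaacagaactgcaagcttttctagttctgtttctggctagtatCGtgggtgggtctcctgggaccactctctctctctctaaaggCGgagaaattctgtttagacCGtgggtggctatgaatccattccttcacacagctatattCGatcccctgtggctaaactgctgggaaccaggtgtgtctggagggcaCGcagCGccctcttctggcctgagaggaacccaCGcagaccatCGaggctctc
Kcna2: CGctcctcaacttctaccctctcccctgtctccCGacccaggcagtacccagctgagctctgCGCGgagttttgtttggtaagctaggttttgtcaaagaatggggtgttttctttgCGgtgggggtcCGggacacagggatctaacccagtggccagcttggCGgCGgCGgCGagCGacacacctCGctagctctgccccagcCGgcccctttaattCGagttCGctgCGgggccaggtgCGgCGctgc
Kcnd2: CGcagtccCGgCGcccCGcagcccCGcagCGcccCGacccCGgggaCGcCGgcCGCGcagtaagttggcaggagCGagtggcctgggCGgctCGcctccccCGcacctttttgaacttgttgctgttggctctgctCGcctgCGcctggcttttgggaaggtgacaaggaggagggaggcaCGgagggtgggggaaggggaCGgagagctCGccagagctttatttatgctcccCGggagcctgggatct
Kcnma1: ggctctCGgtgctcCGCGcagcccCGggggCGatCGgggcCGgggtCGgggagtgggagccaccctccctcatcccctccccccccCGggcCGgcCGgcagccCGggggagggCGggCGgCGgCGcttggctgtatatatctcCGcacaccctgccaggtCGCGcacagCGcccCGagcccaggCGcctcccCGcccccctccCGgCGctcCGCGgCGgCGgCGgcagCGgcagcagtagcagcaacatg

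The number of CG dinucleotides was 14 for Kcnj2, 8 for Kcnk13, 18 for Kcna2, 22 for Kcnd2 and 31 for Kcnma1, against a median of 6 over 32851 promoter windows of the same length. A RefSeq promoter was found for 65 of the 90 members, in 87 windows, and the first window of each member had a median of 8 CG dinucleotides. Both strands were searched for 5 motifs. The PU.1 motif GAGGAAGT was in 2.44% of all windows, the NFI motif in 0.0365%, the STAT motif TTCCNGGAA in 0.913% and the NF-kB motif in 0.356%, and each was in 0 of the 87 member windows. The AP-1 motif TGANTCA was in 6.75% of all windows and in 4 of 87 member windows, those of Kcne3, Kcnip3, Kcnip4 and Kcnk2.

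Microglia libraries held 10.3 M to 14.5 M counts and astrocyte libraries 10.7 M to 15.6 M, and 8 abundant non-coding RNAs took 11.8% to 15.4% and 26.2% to 39.5% of them. Levels are CPM, a gene's counts per M counts of its library, where 3 counts correspond to 0.193 to 0.291 CPM. The sorted types matched their markers: the 12 microglia markers summed to 16771 to 22376 CPM in microglia and 241 to 709 CPM in astrocytes, and the 12 astrocyte markers to 346 to 782 CPM in microglia and 17059 to 22498 CPM in astrocytes. Within an animal, astrocyte markers in microglia were 1.73% to 3.65% of their level in astrocytes, and microglia markers in astrocytes 1.43% to 4.07% of their level in microglia. In such pools of cells, a difference in the number of cells of one type and a difference in RNA per cell cannot be told apart.

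Astrocytes held more potassium channel RNA, spread over more genes, than microglia. Summed over the 90 members, the level was lowest at 457, at the median 499 and highest at 625 CPM in the 6 microglia libraries. It was 1177, 1554 and 1714 CPM in the 6 astrocyte libraries, so the cell types did not overlap. Microglia had 15 members at a mean of 5 CPM or more and 55 under 1 CPM, and astrocytes had 34 and 29. Kcnk6 alone held 38.3% of the microglia sum, and Kcnk6, Kcnk13 and Kcnj2 together held 64.7%. The leading gene in astrocytes, Kcnk1, held 13.1%, and the 5 leading genes Kcnk1, Kcna2, Kcnt1, Kcnd2 and Kcnn2 held 44.8%. Within each genotype the order was the same: the means were 541 ± 77.8 CPM in microglia WT, 492 ± 53.1 CPM in microglia KO, 1607 ± 94.0 CPM in astrocytes WT and 1434 ± 230 CPM in astrocytes KO (SD, n = 3 each).

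**Figure D1:**
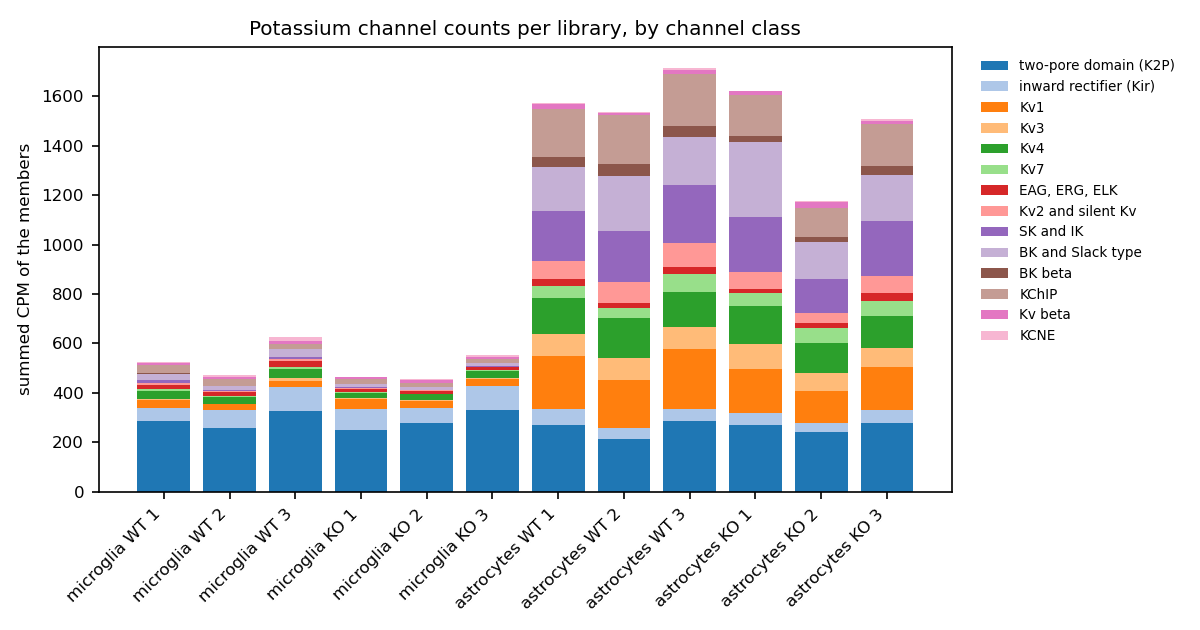
Summed CPM of the potassium channel genes (y axis) in each of the 12 libraries (x axis), stacked by channel class. The K2P block is 251 to 329 CPM in microglia and 214 to 286 CPM in astrocytes, while the Kv1, Kv3, Kv4, Kv7, SK and IK and KChIP blocks are taller in every astrocyte library than in any microglia library.

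Levels can be compared between genes only per length, for which the exon length of the GENCODE M21 annotation was used. On the scale of mean CPM per kb, the order in microglia was Kcnk6 at 47.7, Kcnk13 at 23.6, Kcnj2 at 11.5, Kcna3 at 6.93 and Kcnj13 at 6.83. The order in astrocytes was Kcnk1 at 89.2, Kcnip3 at 25.4, Kcnip4 at 22.5, Kcnd2 at 22.0, Kcnn2 at 14.4, Kcnt1 at 13.4 and Kcna2 at 11.2 mean CPM per kb. Neighbouring genes in these orders were not tested against each other.

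The cell types were compared with edgeR's quasi-likelihood test in 1 fit of all 12 libraries, as the mean of the microglia groups minus the mean of the astrocyte groups on the log2 scale, and a gene was called at a Benjamini-Hochberg adjusted p under 0.05. Of the 90 members, 68 passed the filter on low counts and 22 were not tested. Of those tested, 6 were higher in microglia, where 28.2% of all 17294 genes tested were called in that direction, and 44 were higher in astrocytes, where the share of all genes was 36.4%. The other 18 did not pass the test. In either direction that is 50 of 68, against 64.6% of all genes. The median log2 fold change was -3.16 over the tested members and -0.19 over all genes tested, and 56 of the 68 were below 0, as were 54.1% of all genes. The libraries of the cell types did not overlap for 33 members lower in microglia, against 21.7% of all genes, and for 6 members higher in microglia, against 24.9%. The latter 6 differ from the 6 called: they include Kcnh6, which was not called, and not Kcnh4, whose libraries overlapped.

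**Figure D2:**
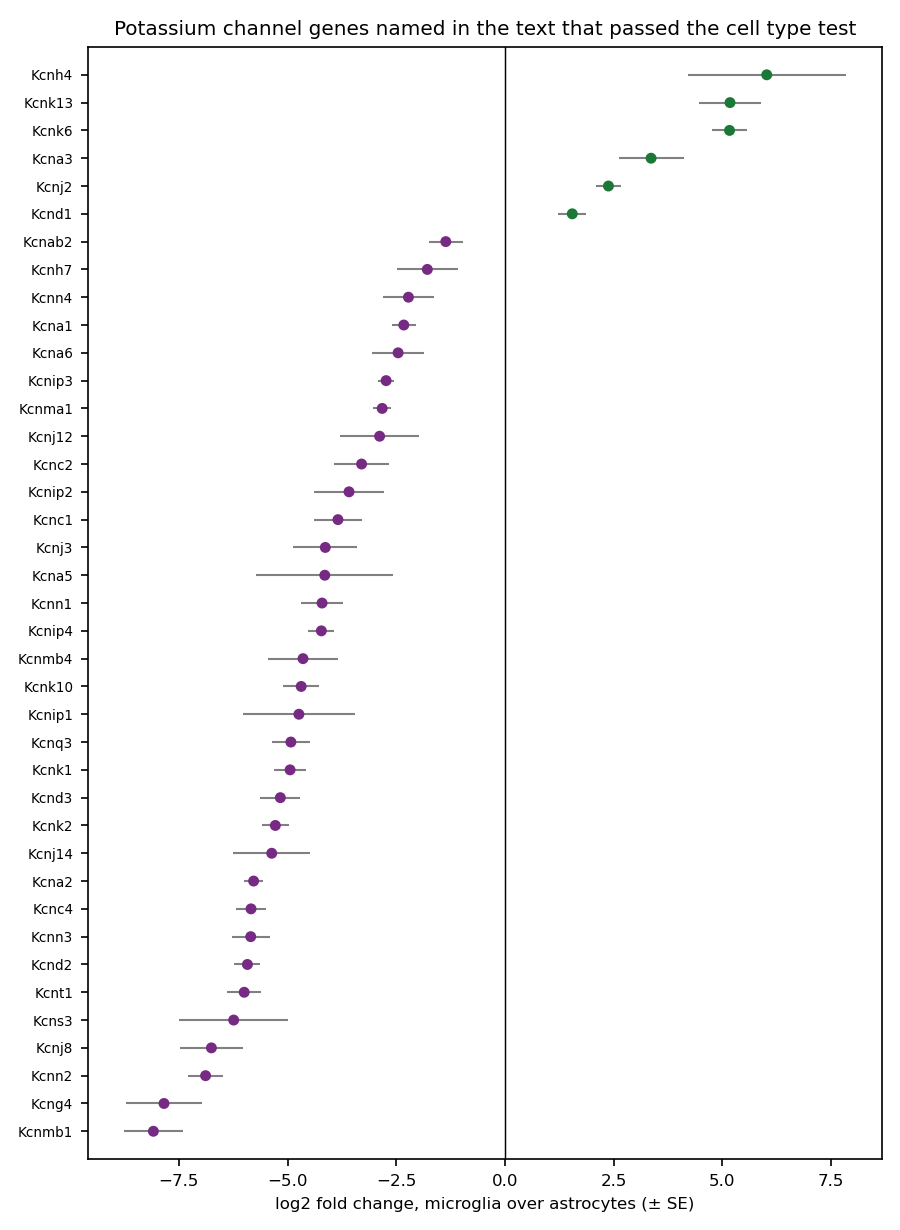
Log2 fold change, microglia over astrocytes (x axis, with its standard error), of 39 of the 50 members that passed the test (y axis), those named in the text. The 6 on the right, from Kcnd1 at 1.55 to Kcnh4 at 6.03, were higher in microglia and the 33 on the left, down to Kcnmb1 at -8.09, were higher in astrocytes.

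K2P channels are leak channels that are open at rest, and this class held the most abundant member of each cell type. Kcnk6, which encodes the TWIK-2 channel of macrophages, was at 158, 187 and 254 CPM (lowest, median and highest) in microglia and at 1.19, 5.68 and 6.23 CPM in astrocytes. The libraries did not overlap, and the log2 fold change was 5.17 (SE 0.39, edgeR adjusted p 2.94e-08). Kcnk13, which encodes the THIK-1 channel behind the resting potential of microglia, was at 59.8, 68.3 and 107 CPM in microglia and at 0, 0.93 and 8.55 CPM in astrocytes. Its log2 fold change was 5.18 (SE 0.70, edgeR adjusted p 1.32e-05). Within an animal, Kcnk6 in astrocytes was 0.648% to 3.59% of its microglia level (median 2.47%). The share of the microglia markers was 1.43% to 4.07% (median 2.17%). Kcnk13 was at 0% to 11.1% (median 1.32%), the highest in WT animal 3, where the microglia markers were at 2.29%. Both genes were above the markers in some animals and below them in others.

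Kcnk1, the gene of the TWIK-1 channel, ran the other way, at 0.969, 8.36 and 15.2 CPM in microglia and 164, 202 and 220 CPM in astrocytes, with a log2 fold change of -4.94 (SE 0.37) and an edgeR adjusted p of 2.80e-08. The mechanically gated TREK channel genes Kcnk2 and Kcnk10 were also higher in astrocytes. Kcnk2 was at 0.551, 0.812 and 1.43 CPM in microglia and 15.4, 31.1 and 39.4 CPM in astrocytes (log2 fold change -5.28, SE 0.31). Kcnk10 was at 0.151, 0.519 and 1.45 CPM against 10.1, 12.7 and 16.2 CPM (log2 fold change -4.69, SE 0.41). Kcnk12, the gene of THIK-2, the closest relative of THIK-1, did not pass the test, at a median of 5.35 CPM in microglia and 2.74 CPM in astrocytes (edgeR adjusted p 0.253). Of the 14 K2P members, 2 were higher in microglia, 6 were higher in astrocytes, 1 did not pass the test and 5 were not tested.

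Kir channels pass potassium more readily into the cell than out of it. Kcnj2, the gene of the strong inward rectifier Kir2.1, was at 40.6, 63.5 and 85.6 CPM in microglia and 3.54, 10.2 and 17.6 CPM in astrocytes, without overlap. Its log2 fold change was 2.38 (SE 0.30, edgeR adjusted p 5.55e-06), and its level in astrocytes was 6.45% to 25.6% of that in the microglia of the same animal, above the share of the microglia markers in every animal. Of the 13 Kir members, 10 were tested. Of those, 1 was higher in microglia, 4 were higher in astrocytes and 5 did not pass the test, where 36.4% of all genes were called higher in astrocytes. The 4 were Kcnj3, Kcnj8, Kcnj12 and Kcnj14. Neither Kcnj12 nor Kcnj14 was called with a minimum count of 50, and Kcnj12 was not called among the WT libraries alone. Kcnj3, a subunit of the G protein-gated GIRK channels, was at 0, 0.317 and 1.36 CPM in microglia and 5.53, 6.28 and 10.6 CPM in astrocytes (log2 fold change -4.13, SE 0.74). Its partner subunit Kcnj6 overlapped between the cell types, at medians of 1.77 and 2.33 CPM (edgeR adjusted p 0.391, and 0.00356 without KO replicate 1). The Kir genes set aside, Kcnj10 at means of 29.6 and 566 CPM and Kcnj16 at 2.64 and 152 CPM, were higher in astrocytes, with log2 fold changes of -4.56 and -6.30.

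Some members are known from cells other than the sorted types. Kcnj8, the Kir6.1 subunit of ATP-sensitive channels in pericytes, was at 0, 0.0689 and 0.304 CPM in microglia and 6.76, 9.02 and 18.5 CPM in astrocytes (log2 fold change -6.75, SE 0.72). Kcnmb1, the beta subunit of BK channels in smooth muscle, had 0 counts in 4 of 6 microglia libraries and was at 15.3, 29.0 and 39.1 CPM in astrocytes (log2 fold change -8.09, SE 0.68). The 9 mural cell markers summed to 20.4 to 48.1 CPM in microglia and 365 to 482 CPM in astrocytes, with 8 of 9 called higher in astrocytes and none at 0 in all libraries. Their part in the result for Kcnj8 and Kcnmb1 was not tested.

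Kv channels open on depolarization, and their alpha subunit genes fall into several classes. Kcna2, a delayed rectifier subunit gene of the Kv1 class, was at 1.66, 3.08 and 3.97 CPM in microglia and 99.5, 145 and 157 CPM in astrocytes. The log2 fold change was -5.78 (SE 0.21, edgeR adjusted p 5.38e-11). Kcna1 was at 4.75, 9.58 and 12.1 CPM against 22.9, 34.7 and 71.8 CPM (log2 fold change -2.33, SE 0.27). The opposite held for Kcna3, the gene of the Kv1.3 channel of immune cells, at 8.25, 13.8 and 17.2 CPM in microglia and 0, 1.16 and 3.08 CPM in astrocytes. Its log2 fold change was 3.36 (SE 0.75, edgeR adjusted p 0.00118). Kcna6 was at medians of 2.17 and 12.1 CPM with overlapping libraries (log2 fold change -2.46, SE 0.59), and among the KO libraries alone its edgeR adjusted p was 0.170. Of the 8 Kv1 members, 1 was higher in microglia, 4 were higher in astrocytes, 1 did not pass the test and 2 were not tested.

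The A-type Kv4 class also split. Kcnd1 was at 14.4, 24.9 and 33.4 CPM in microglia and 2.30, 7.33 and 9.69 CPM in astrocytes, with a log2 fold change of 1.55 (SE 0.32). Its edgeR adjusted p was 0.000711, and 0.0548 among the KO libraries alone. Kcnd2 was at 0.449, 2.61 and 3.78 CPM in microglia and 96.8, 116 and 130 CPM in astrocytes, a log2 fold change of -5.93 (SE 0.30). Kcnd3 was at 0.167, 0.706 and 1.90 CPM against 14.9, 21.9 and 29.8 CPM (log2 fold change -5.17, SE 0.46). So 1 of the 3 Kv4 genes was higher in microglia and 2 were higher in astrocytes, with no overlap between the cell types for any of them.

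KChIP proteins are calcium-binding partners of Kv4 channels, and all 4 of their genes were higher in astrocytes. Kcnip3, whose protein is also known as the transcriptional repressor DREAM, was at 10.2, 15.5 and 23.6 CPM in microglia and 76.1, 91.5 and 99.8 CPM in astrocytes (log2 fold change -2.73, SE 0.18). Kcnip4 was at 2.41, 4.42 and 10.4 CPM against 41.6, 80.5 and 110 CPM (log2 fold change -4.22, SE 0.30). Kcnip1 and Kcnip2 were lower, at medians of 2.05 and 3.15 CPM in astrocytes. Neither was called with a minimum count of 50, and Kcnip1 was not called among the WT or the KO libraries alone. Dpp6 and Dpp10, the other auxiliary subunits of Kv4 channels, had log2 fold changes of -4.55 and -5.15. Dpp6 was at medians of 2.09 CPM in microglia and 25.8 CPM in astrocytes, without overlap. Dpp10 was near the floor, at medians of 0 and 1.04 CPM with overlapping libraries.

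**Figure D3:**
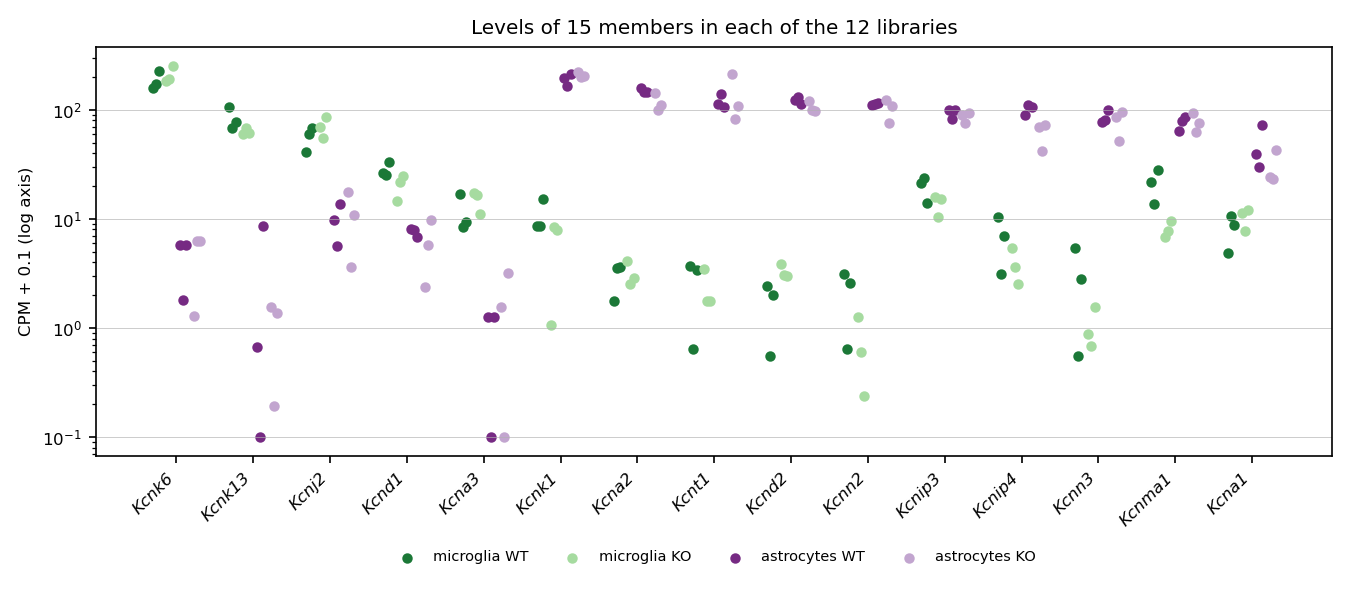
CPM plus 0.1 (log y axis) of 15 members (x axis) in the 12 libraries, coloured by group, each point 1 library. Kcnk6, Kcnk13, Kcnj2, Kcnd1 and Kcna3 lie higher in every microglia library than in any astrocyte library, and the other 10 genes lie higher in every astrocyte library, with WT and KO points mixed for most of them.

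The remaining Kv classes were low in microglia. Kcnc1, Kcnc2 and Kcnc4, of the fast Kv3 class, were each higher in astrocytes, without overlap. Their astrocyte medians were 17.7 CPM for Kcnc1, 6.46 CPM for Kcnc2 and 29.1 CPM for Kcnc4, and their log2 fold changes were -3.84, -3.30 and -5.84. Among the Kv7 genes, some of which carry the slow M-current, Kcnq3 was at 0.167, 2.17 and 3.04 CPM in microglia and 26.1, 41.6 and 58.3 CPM in astrocytes (log2 fold change -4.92, SE 0.44). Kcnq1, of the same class, was not tested, and Kcnb2, of the Kv2 class, did not pass the test.

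Silent Kv subunits form no channel of their own and modify Kv2 channels. Kcng4 was at a median of 0 CPM in microglia and 14.8 CPM in astrocytes (log2 fold change -7.84, SE 0.86), and Kcns3 at 0 and 2.36 CPM (log2 fold change -6.24, SE 1.25). Of the 10 silent members 3 were higher in astrocytes, 2 did not pass the test and 5 were not tested. Kcnab2, a cytoplasmic beta subunit of Kv1 channels, was at 5.37 CPM in microglia and 11.9 CPM in astrocytes at the median, with overlapping libraries (log2 fold change -1.36, edgeR adjusted p 0.00661, and 0.101 among the KO libraries alone).

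In the EAG, ERG and ELK class, 1 member was higher in microglia, 2 were higher in astrocytes, 4 did not pass the test and 1 was not tested. The EAG gene Kcnh1 was at 2.03, 4.76 and 12.2 CPM in microglia and 3.82, 6.89 and 8.68 CPM in astrocytes, and the ERG gene Kcnh2 at medians of 2.59 and 6.07 CPM. Neither passed the test (edgeR adjusted p 0.137 and 0.107), although limma voom called Kcnh2 at an adjusted p of 0.0213. The member higher in microglia was the ELK gene Kcnh4, named here after its values were seen. It had 71 counts over the 6 microglia libraries and 0 in the 6 astrocyte libraries, at least 25.1-fold higher over a floor of 3 counts over the group. It had 0 counts in 2 microglia libraries, and without KO replicate 3 its edgeR adjusted p was 1.00.

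Of the 4 genes of SK and IK channels, which open on calcium, 4 were higher in astrocytes, and of the 4 pore genes of the BK and Slack type 2 were, while Kcnt2 and Kcnu1 were not tested. Kcnn2, a small-conductance SK channel gene, was at 0.138, 0.851 and 3.02 CPM in microglia and 76.1, 111 and 123 CPM in astrocytes (log2 fold change -6.89, SE 0.40). Kcnn3 was at 0.449, 1.11 and 5.35 CPM against 52.1, 82.8 and 99.5 CPM (log2 fold change -5.85, SE 0.44). Kcnn1 was at a median of 0.587 and 8.37 CPM (log2 fold change -4.21, SE 0.49). Kcnn4, the intermediate-conductance channel known from immune cells and microglia, was at 0.138, 1.83 and 3.32 CPM in microglia and 3.25, 6.30 and 10.9 CPM in astrocytes. It was therefore higher in astrocytes here (log2 fold change -2.22, SE 0.58, edgeR adjusted p 0.00402), though not among the WT libraries alone, where the adjusted p was 0.0951.

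The sodium-activated Slack channel gene Kcnt1 was at 0.538, 2.47 and 3.62 CPM in microglia and 82.7, 111 and 212 CPM in astrocytes (log2 fold change -6.00, SE 0.39). Kcnma1, the pore subunit of the BK channel, which opens on calcium and voltage, was at 6.78, 11.6 and 27.7 CPM against 62.2, 77.2 and 92.4 CPM (log2 fold change -2.82, SE 0.20). Kcnmb4, the brain BK beta subunit, was at medians of 0.332 and 7.74 CPM (log2 fold change -4.65, SE 0.81). With Kcnmb1, 2 of the 4 BK beta genes were higher in astrocytes, Kcnmb2 did not pass the test and Kcnmb3 was not tested.

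Markers of other cells also differed between the sorted types. The 12 neuron markers summed to 16.3 to 49.3 CPM in microglia and 158 to 391 CPM in astrocytes, and 11 of 12 were called higher in astrocytes. Of the 10 oligodendrocyte markers, which summed to 295 to 1776 and 920 to 4222 CPM, 6 were called higher in astrocytes. No gene of either list was at 0 in all libraries of a cell type. Their part in the astrocyte levels of the members was not tested. The 8 monocyte and macrophage markers ran the other way, at sums of 172 to 377 CPM in microglia and 11.1 to 30.0 CPM in astrocytes. Of the 7 tested, 6 were called higher in microglia. The part of these markers in the microglia levels of the members was not tested either. Of the members, 30 at 5 CPM or more were called higher in astrocytes. For 12 of them the median share of the astrocyte level found in the microglia of the same animal was no higher than 3.65%. That was the largest share of the astrocyte markers, whose median was 2.12%. In single animals some of these 12 lay above the markers. Kcnd2 was at 3.14%, 2.92% and 2.99% in the KO animals, against 1.73%, 2.21% and 1.75% for the markers, and below them in the WT animals. For 5 of the 30, with Kcnip3, Kcnma1, Kcna1 and Kcnab2 among them, the share was above 3.65% in every animal, for example 13.4% to 28.7% for Kcnip3.

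Of the 4 KCNE members, small single-span auxiliary subunits, Kcne2 and Kcne4 did not pass the test and Kcne1 and Kcne3 were not tested. Kcnj13 and Kcne2 are known from the choroid plexus, where the Kir7.1 channel and the KCNE2 subunit sit in the apical membrane, and neither passed the cell type test. Kcnj13 was at 3.92, 9.06 and 25.6 CPM in microglia WT and at 0.969, 4.27 and 8.26 CPM in microglia KO. In astrocytes it was at 9.64, 2.68 and 5.54 CPM in WT and at 1.87, 0.931 and 9.05 CPM in KO. The 8 choroid plexus and ependymal markers, among them Ttr, summed to 901, 1143 and 2274 CPM in microglia WT, 369, 557 and 918 CPM in microglia KO, and 742 to 1320 CPM in astrocytes. Ttr alone was at 784, 987 and 1934 CPM in microglia WT, most of those sums. The markers did not run together: 5 of the 8 were called higher in astrocytes and 0 higher in microglia. Medians in microglia and astrocytes were 790 and 514 CPM for Ttr, but 4.82 and 115 CPM for Foxj1. The highest library for the marker sum, microglia WT replicate 3, was also the highest for Kcnj13 and for Kcne2, at 15.7 CPM. The lowest, microglia KO replicate 1, was the second lowest for Kcnj13, but for Kcne2, at 3.10 CPM, it lay above 4 astrocyte libraries (0.680 to 2.76 CPM). The part of these markers in the levels of both genes was not tested. The edgeR adjusted p between cell types was 0.601 for Kcnj13 and 0.124 for Kcne2, the latter 0.0299 without KO replicate 3.

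**Figure D4:**
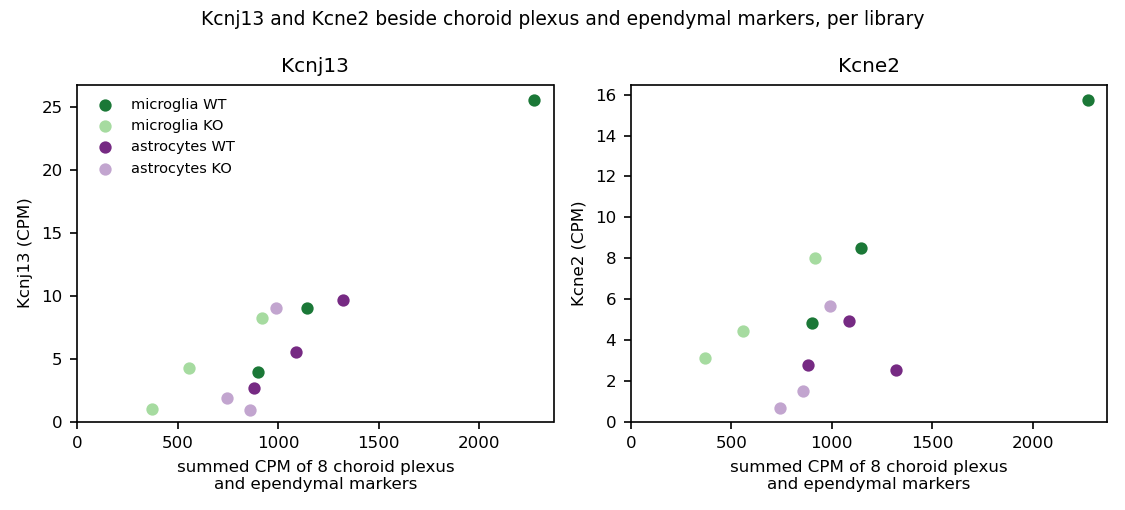
Kcnj13 (left) and Kcne2 (right) in CPM (y axes) against the summed CPM of 8 choroid plexus and ependymal markers (x axes), 1 point per library, coloured by group. Microglia WT replicate 3, at a marker sum of 2274 CPM, of which Ttr was 1934 CPM, has the highest Kcnj13 (25.6 CPM) and Kcne2 (15.7 CPM).

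Genes outside the naming pattern that act on the same ion were listed separately. Of 10 partner proteins of potassium channels, 5 were tested and all 5 were called higher in astrocytes, among them Abcc9, the sulfonylurea receptor that pairs with Kir6.1 (means of 1.17 and 31.1 CPM, log2 fold change -4.94), and Amigo1, a Kv2 partner (7.86 and 33.6 CPM, log2 fold change -2.41). Of 24 genes of sodium-potassium pumps, cation-chloride cotransporters, HCN channels and other potassium-permeable channels, 21 were tested. Of those, 13 were higher in astrocytes, among them the pump subunit Atp1b2 (means of 34.6 and 2687 CPM, log2 fold change -6.60). The 5 higher in microglia included the potassium-chloride cotransporter Slc12a7, at a log2 fold change of 1.66, and the pump subunit Atp1b3 and pump regulator Fxyd5, at 1.01 and 1.96.

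Between KO and WT, edgeR called no member in either cell type. The question is whether loss of importin α4 changes these genes under LPS. In microglia edgeR called 0 of 14191 genes (0.0%), and 0 of the 41 members tested, while 49 members were not tested. At an unadjusted p under 0.05, 3 members were lower and 0 higher in KO, where the shares of all genes were 5.07% and 2.35%. DESeq2 called 1 member, Kcnma1, and limma voom called 0. Members with a log2 fold change below 0 numbered 28 of 41 tested, where the share of all genes was 50.1%, and the median was -0.65 over the tested members and 0.00 over all genes.

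Kcnma1 had the smallest p. It was at 21.9, 13.7 and 27.7 CPM in microglia WT and at 6.78, 7.70 and 9.50 CPM in microglia KO, from 70 to 364 counts per library. The KO libraries all lay below the WT libraries, and the means were 21.1 ± 7.01 and 7.99 ± 1.38 CPM (SD, n = 3 each). The log2 fold change was -1.42 (SE 0.34, unadjusted p 0.000961), with an edgeR adjusted p of 0.439. DESeq2 gave an adjusted p of 0.0445, edgeR with all 12 libraries in 1 fit 0.0412 and edgeR without the filter on low counts 0.0319, in a fit whose spread had 97020 degrees of freedom in place of 13.7. Over 15 alternatives the adjusted p ran from 0.0319 to 0.938. In astrocytes Kcnma1 was at 64.1, 79.5 and 85.4 CPM in WT and 92.4, 62.2 and 74.9 CPM in KO.

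Sums of some marker lists also differed between the microglia libraries, and the sums were not tested. Astrocyte markers summed to 570, 346 and 782 CPM in microglia WT and to 378, 407 and 379 CPM in microglia KO, with overlap, and neuron markers to 44.0, 32.4 and 49.3 CPM and to 20.7, 16.3 and 25.4 CPM, without overlap. Fibroblast markers did not overlap either, at 38.8, 36.1 and 77.9 CPM in WT and 23.9, 28.9 and 32.8 CPM in KO. Mural cell markers overlapped, at 46.7, 30.3 and 48.1 CPM in WT and 22.4, 20.4 and 31.1 CPM in KO. So did endothelial markers, at 75.1, 32.8 and 92.4 CPM in WT and 33.7, 31.4 and 37.4 CPM in KO. Oligodendrocyte markers overlapped, at 663, 295 and 1776 CPM in WT and 460, 333 and 840 CPM in KO, as did monocyte and macrophage markers, at 172, 323 and 377 CPM and at 357, 227 and 348 CPM. Of the 12 astrocyte markers, 5 were lower in KO at an unadjusted p under 0.05, and none was called by edgeR. Kcnma1 in microglia was 34.1%, 17.3% and 32.4% of its astrocyte level in the WT animals and 7.34%, 12.4% and 12.7% in the KO animals. These shares were above those of the astrocyte markers in every animal. The part of these markers in the Kcnma1 difference was not tested.

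The other microglia members with the smallest p were lower in KO as measured but did not pass the test. Kcnh1 was at 4.98, 6.82 and 12.2 CPM in WT and 2.03, 2.51 and 4.55 CPM in KO, without overlap (log2 fold change -1.41, SE 0.54, edgeR adjusted p 0.616). Kcnj13, given above beside the choroid plexus markers, overlapped, and its log2 fold change was -1.51 (SE 0.70, edgeR adjusted p 0.672). Kcnn1 was at 0.829, 0.987 and 2.28 CPM in WT and 0.194, 0.0836 and 0.344 CPM in KO, from 1 to 30 counts per library (log2 fold change -2.66, SE 1.24, edgeR adjusted p 0.676). The libraries did not overlap for 7 members lower in KO, against 6.57% of all genes, and for 2 higher, Kcnd2 and Kcnj9, against 6.53%.

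Among the other genes of potassium transport, edgeR called 0 of 18 tested in microglia and 0 of 21 in astrocytes, with 6 and 0 lower in KO at an unadjusted p under 0.05 and 0 higher. DESeq2 called 1 of these genes in microglia and 0 in astrocytes, and limma voom called 0. Of the channel partners, 0 of 3 tested in microglia and 0 of 5 in astrocytes were called by edgeR, DESeq2 or limma voom, and 0 had an edgeR unadjusted p under 0.05.

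The most abundant microglia channels did not pass the test between genotypes. Kcnk6 was at 158, 173 and 228 CPM in WT and 184, 190 and 254 CPM in KO, a log2 fold change of 0.15 with a 95% interval from -0.29 to 0.58. Kcnk13 was at 107, 68.4 and 77.1 CPM in WT and 59.8, 68.2 and 60.9 CPM in KO, without overlap but with WT replicate 2 close to KO replicate 2. Its log2 fold change was -0.45 (interval -0.91 to 0.02, unadjusted p 0.0595, edgeR adjusted p 0.695). Kcnj2 was at 40.6, 59.3 and 67.7 CPM in WT and 68.7, 54.9 and 85.6 CPM in KO, a log2 fold change of 0.30 (interval -0.20 to 0.80).

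**Figure D5:**
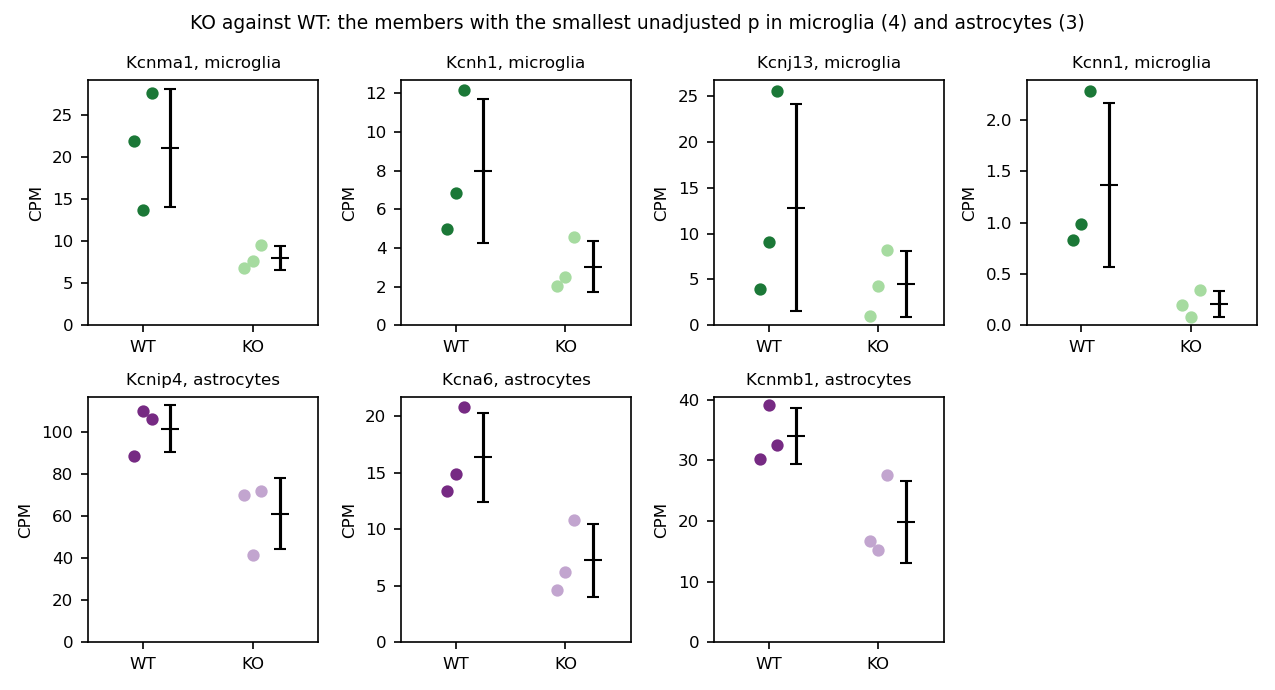
CPM (y axes, from 0) in WT and KO libraries of the 4 members with the smallest unadjusted p in microglia (top) and the 3 with the smallest in astrocytes (bottom), 1 point per library, with the mean and SD beside the points. All 7 means are lower in KO, with no overlap of libraries for Kcnma1, Kcnh1, Kcnn1, Kcnip4, Kcna6 and Kcnmb1, and none passed the test.

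In astrocytes edgeR called 0 of 15755 genes (0.0%) and 0 of the 63 members tested, with 27 not tested, and DESeq2 and limma voom called 0 members too. At an unadjusted p under 0.05, 3 members were lower and 0 higher in KO, against 1.24% and 1.13% of all genes. Of the tested members 40 had a log2 fold change below 0, as had 50.6% of all genes. Kcnip4 was at 88.9, 110 and 106 CPM in WT and 70.0, 41.6 and 72.1 CPM in KO, without overlap. Its log2 fold change was -0.64 (SE 0.22, unadjusted p 0.0116, edgeR adjusted p 0.999). Kcna6 was at 13.4, 14.9 and 20.9 CPM in WT and 4.68, 6.24 and 10.9 CPM in KO (log2 fold change -1.05, SE 0.42, unadjusted p 0.0287). The BK beta subunit gene Kcnmb1 was at 30.3, 39.1 and 32.6 CPM in WT and 16.7, 15.3 and 27.7 CPM in KO (log2 fold change -0.68, SE 0.29, unadjusted p 0.0391).

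Non-overlapping libraries were found for 7 astrocyte members, all lower in KO, where 5.74% of all genes were lower and 2.39% higher without overlap. They were Kcna2, Kcna6, Kcnh1, Kcnip2, Kcnip4, Kcnmb1 and Kcnn1. Of these, Kcna2 was at 157, 145 and 146 CPM in WT and 144, 99.5 and 111 CPM in KO, a log2 fold change of -0.23 with an interval from -0.65 to 0.19. The most abundant astrocyte member, Kcnk1, was at 197, 164 and 211 CPM in WT and 220, 200 and 205 CPM in KO, a log2 fold change of 0.26 (interval -0.15 to 0.67). Astrocyte KO replicate 2 had the lowest member sum, at 1177 CPM, and the largest share of the 8 abundant non-coding RNAs, at 39.5%. The part of that share in the lower levels was not tested.

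The difference between the genotype effects of the cell types, microglia minus astrocytes, was tested in the fit of all 12 libraries. EdgeR called 0 of 17294 genes (0.0%) and 0 of 68 members tested. At an unadjusted p under 0.05, 7 members were below 0 and 1 above, against 5.17% and 1.20% of all genes, DESeq2 called 1 member, Kcnma1 (adjusted p 0.0458), and limma voom called 0. For Kcnma1 the difference was -1.63 on the log2 scale (SE 0.39, edgeR adjusted p 0.321). For Kcng4 it was -5.45 (SE 1.87, edgeR adjusted p 0.614), resting on 16 and 2 counts in the microglia WT libraries that had any, and for the SK gene Kcnn2 it was -1.95 (SE 0.73, edgeR adjusted p 0.693). The median over all genes was -0.16, and 48 of the 68 members tested and 60.4% of all genes were below 0.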

How the data were processed

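RNA was measured in 12 libraries of sorted mouse microglia and astrocytes, made from full-length cDNA (SMART-Seq HT, Nextera), per the labels' protocols. Estimated counts by gene symbol, in 1 table per cell type, were deposited by the authors, with column names of RSEM output per the file headers. The submitters' processing notes name STAR 2.7.10b, RSEM 1.3.3, limma and the build GRCm39, and the annotation and the strand setting are not stated there or in the labels. Reads shared by similar genes, such as paralogs, may have been split between them, and without molecular identifiers floors cover counting error only.

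Before testing, estimated counts were rounded to integers. All 12 columns were matched to a library. Library totals were 10.3 M to 15.6 M, and the precision of a level under about 1 CPM is low. Tests used edgeR 4.0.16 in R 4.3.3 (quasi-likelihood, TMM, filterByExpr with a minimum count of 10, Benjamini-Hochberg over all genes tested, adjusted p under 0.05): cell types in 1 fit of 4 groups, KO against WT within each cell type, and the interaction in the fit of 4 groups. Standard errors (SE) are the absolute log2 fold change over the square root of F, and 95% intervals use the t quantile at the fit's degrees of freedom. The statistics were tested on simulated data. Alternatives were DESeq2 1.42.0, limma voom 3.58.1, other scalings, filters, sample sets, blocks and leaving out each replicate. Each group's libraries come from separate animals, per the labels. Microglia and astrocyte libraries are paired by animal in the labels. Deviations from group means correlated at 0.004 to 0.096 within an animal.

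The members, lists and named genes were chosen with earlier results of these data known. Named are members at a mean of 5 CPM or more in a group, up to 10 called members per direction with the largest cell type difference and no overlap, the 4 smallest p per cell type for KO, the 3 smallest for the interaction, 11 channels known from glia, mural or choroid plexus cells, and list genes called at 10 CPM or more. The list genes were picked from these by size. Some genes that this rule names are not reported here.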

Additional observations from a re-analysis of the deposited data

How the results depend on the processing

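Without the 8 abundant non-coding RNAs in the library totals, the mean member sum was 599 CPM in microglia and 2180 CPM in astrocytes, against 516 and 1521 CPM, and leaving out each replicate gave 494 to 528 and 1482 to 1590 CPM. Over all alternatives, 4 to 7 members were higher in microglia and 31 to 49 in astrocytes, and 5 to 7 and 37 to 46 when a replicate was left out. With the animal as a replicate block the numbers were 7 and 41, with 47 of the 50 calls shared (Kcna5 and Kcnh7 among those lost, Kcnh6 gained). The cell type difference of Kcnj13 turned to -0.051 in KO libraries only and ran from -0.033 (without WT replicate 3) to 0.93 when a replicate was left out. Kcnd2 in KO against WT astrocytes ran from -0.18 to 0.021 when a replicate was left out, above 0 without WT replicate 2 or KO replicate 3. The number of members called lower in KO microglia became 1 with DESeq2, without the filter and with all 12 libraries in 1 fit, and 1 with DESeq2 for the interaction, in each case Kcnma1. The cause was not tested. Leaving out each replicate, or using the replicate number as a block, gave 0 called members in both genotype comparisons, as did leaving out each replicate for the interaction (0 to 0). Same-numbered WT and KO libraries, which share only a number, correlated at 0.051 to 0.194 in microglia and -0.022 to 0.231 in astrocytes. Counted per named gene and alternative, 662 cell type differences kept both their side and their call. Another 11 kept the side but lost the call, 5 kept the side and gained a call, and 2 reversed. The median of all genes in the cell type comparison moved by up to 0.24 (log2, without KO replicate 3). Depth limits the members under 1 CPM, where fold changes rest on a few counts.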
